A study of Mus musculus with 67 samples.

Results

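The 9 genes Il1rl1, Areg, Klrg1, Gata3, Pparg, Rora, Batf, Prdm1 and Penk are known together as the tissue-repair programme of regulatory T cells (Tregs) that carry the interleukin-33 receptor ST2 in organs outside the lymphoid tissues. They were chosen by name for that role and are 9 of the 24530 gene symbols in the deposited tables.

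Tregs are CD4 T cells that depend on the transcription factor Foxp3 and hold other immune cells in check. In fat, muscle, skin and gut some of them also take part in repair: injured cells release interleukin-33, which binds ST2 on the Treg, and the Treg releases amphiregulin, a growth factor for epithelium and muscle precursors. In the brain, amphiregulin from Tregs is known for its effect on astrocytes after stroke.

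The study asked how a high-fat high-sugar (HFHS) diet acts on the CD4 T cells of the mouse hypothalamus, the region that governs feeding. The main experiment holds 59 libraries of sorted T cells, each from 5 pooled mice, and compares HFHS with a standard diet (SD), female Balb/c with male C57Bl/6J mice, hypothalamus with the rest of the brain, and Tregs with activated conventional T cells (Tconv). A pilot of 8 hypothalamus libraries adds 1 library per condition. Its mice were female: Balb/c with a Foxp3 GFP reporter on HFHS or regular diet, and leptin-deficient ob/ob or wild-type C57Bl/6J.

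Diets began at 6 weeks of age, and their length in the main experiment is not given in the sources used here. Each hypothalamus group of 1 strain, diet and cell type holds 4 libraries. In the rest of the brain, Balb/c mice gave 3 Tconv libraries on HFHS and 3 on SD, and 4 Treg libraries on HFHS and 2 on SD. C57Bl/6J mice gave 3 Tconv libraries on HFHS and 4 on SD there, and 4 Treg libraries on each diet. Because all Balb/c mice were female and all C57Bl/6J mice male, strain and sex cannot be told apart. Activated Tconv were sorted as CD4 cells without CD25 or Foxp3 reporter signal, high for CD44 and low for CD62L. The Treg gate of this experiment is not given in the sources used here. A library is named below by its group and by its pool, the pair of animal numbers in its title.

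Levels are given as CPM, counts scaled to the library's total on genes. Totals in hypothalamic Tconv ran from 13196689 to 20538309 counts. Hypothalamic Treg libraries were far less even, from 1724149 to 38482277. Rest-brain Tconv had 11340063 to 28187008 counts and rest-brain Tregs 8938477 to 24985589. A gene counts as detected here with more than 3 counts in a library, which equals 0.078 to 1.74 CPM in hypothalamic Tregs. By that floor the median hypothalamic Treg library detected 4749 genes, against 9120.5 in rest-brain Tregs, 9913.5 in hypothalamic Tconv and 12368 in rest-brain Tconv. These amplified libraries carry no molecular identifiers, so floors and counting intervals cover counting error only.

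The sort was checked on defining genes. Foxp3 stood at 241 to 767 CPM in rest-brain Tregs with a median of 385, above all 13 rest-brain Tconv libraries, which reached 12.6 at most. In hypothalamic Tregs Foxp3 ran from 0.0977 through a median of 206 to 862 CPM, and 12 of 16 libraries lay above every hypothalamic Tconv library. All 10 genes of a Treg identity list passed the test as higher in Tregs in each tissue, Foxp3 with a log2 difference of 5.91 (adjusted p 1.01e-09) in the rest of the brain and 5.53 (adjusted p 0.000196) in the hypothalamus. Cd3e, a chain of the T-cell receptor complex, had a median of 2395 CPM in rest-brain Tregs and was found in all 59 libraries.

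The 4 hypothalamic Treg libraries with Foxp3 under 5 CPM, no higher than in Tconv, stand apart. The C57Bl/6J SD library of pool 11_15 had 1.21 CPM of Foxp3 and 37.9 of Cd3e, a summed 221 CPM over the 8 T-cell markers and 4304 CPM over 5 of 5 endothelial markers, led by Cldn5. Its 6 macrophage markers, all detected, summed to 2830 CPM, led by Lyz2, and its 8 microglia markers to 1261 CPM with 7 detected. The Balb/c SD library of pool 32_36 had 0.0977 CPM of Foxp3 and 25051 CPM over the microglia list, with 7 of 8 detected and 1 at 0. The C57Bl/6J SD library of pool 43_47 held the fewest counts of all, 1724149, with Foxp3 at 3.48 CPM, and the C57Bl/6J HFHS library of pool 06_10 had 0.429 CPM of Foxp3. Results with hypothalamic Tregs are therefore also given without the first 2 and without all 4 where that bears on them, alternatives chosen after seeing the data. The part that these foreign markers play in the members' levels was not tested.

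**Figure D1:**
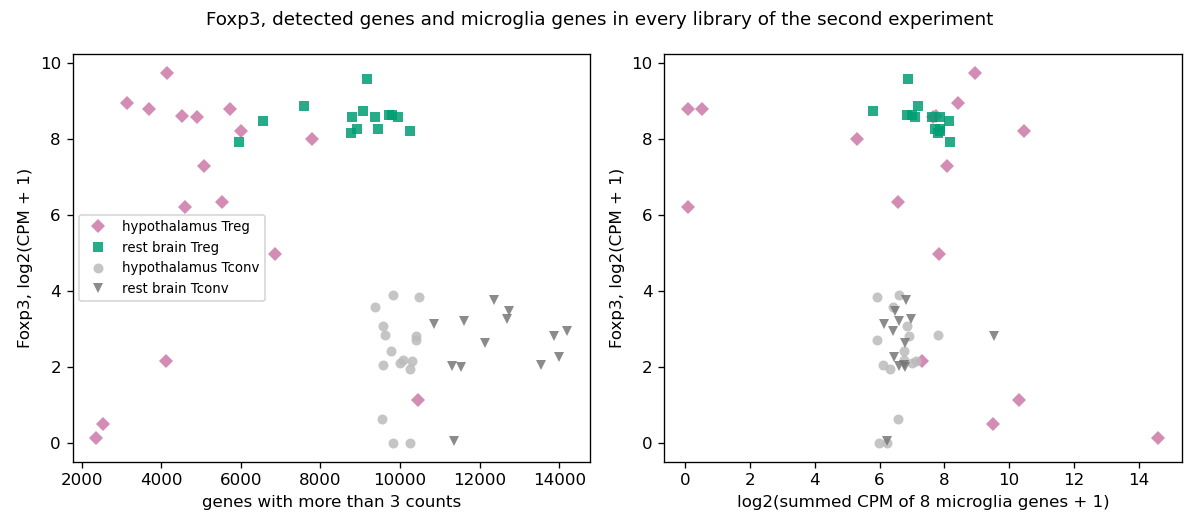
Foxp3 in CPM for each of the 59 libraries against the number of genes detected (left) and against the summed CPM of the microglia list (right), coloured by cell type and tissue. 4 hypothalamic Treg libraries have Foxp3 under 5 CPM, and the highest microglia sum is 25051 CPM.

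The first question is whether brain Tregs carry the repair programme at all, and in the rest of the brain most of it was there. The ST2 gene, the surface receptor Klrg1 and the growth factor Areg stood an order of magnitude above the activated Tconv of the same organ. Gata3, Rora and Batf, transcription factors that Tconv also use, were higher by smaller factors. Pparg, Prdm1 and Penk did not pass the test. In all, 6 of 9 members were higher in Tregs and 0 lower, where 4.69% of the 13956 genes tested were higher and 19.9% passed in either direction. The median log2 difference of the members was 1.13 against -0.42 for all genes tested. In 1 fit of all 59 libraries only Klrg1 of the 6 passed (adjusted p 0.0294), with Areg at 0.0571 and Il1rl1 at 0.0633.

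Il1rl1 encodes ST2 itself, as a membrane receptor and as a shorter secreted form that traps interleukin-33. Its levels in rest-brain Tregs were 2.72 CPM at the lowest, 110 at the median and 205 at the highest, and in rest-brain Tconv 0, 9.13 and 17.4. Only the C57Bl/6J Treg libraries of pools 01_05 and 33_37 fell within the Tconv range, so 12 of 14 Treg libraries lay above every Tconv library. In edgeR's quasi-likelihood test the log2 difference was 3.69 ± 0.71 (SE), a 12.9-fold rise, with an adjusted p of 0.000757, and Il1rl1 was higher in Tregs in 10 of 12 pools that gave both cell types.

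Most Il1rl1 reads came from the receptor. The long form of 567 codons took 90.2% of the gene's reads in rest-brain Tregs, 94.9% in rest-brain Tconv, 95.0% in hypothalamic Tregs and 93.8% in hypothalamic Tconv. The rest fell on a shorter form of 337 codons, 9.80% in rest-brain Tregs and 5.05% in hypothalamic Tregs. These shares are Salmon's assignments summed over libraries and were not tested.

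Areg encodes amphiregulin, a ligand of the epidermal growth factor receptor. It was off or nearly off in Tconv of the rest of the brain, at 0, 0.0543 and 4.59 CPM for the lowest, median and highest library, and reached 0, 25.4 and 179 CPM in rest-brain Tregs. It was all or nothing between Treg pools: 8 of 14 libraries lay above all Tconv libraries, at 25.01 CPM or more, while the other 6 had 0.322 CPM or less or stood at 0. The log2 difference was 4.74 ± 1.21, or 26.7-fold, with an adjusted p of 0.00848. That call rests on 1 library, the Balb/c SD Treg library of pool 37_41 at 25.8 CPM. Without it the Balb/c SD Treg group keeps a single library at 0, and the difference could not be estimated (log2 2.08, SE 154).

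Penk encodes proenkephalin, from which the opioid peptides called enkephalins are cut. Among rest-brain Tregs it was detected in 13 of 14 libraries, at 0, 36.1 and 372 CPM for the lowest, median and highest, and in Tconv of that tissue at 0, 9.00 and 88.1 CPM. The highest values were the Balb/c HFHS pools 16_20 and 26_31 and the C57Bl/6J SD pool 01_05, but only 4 of 14 Treg libraries exceeded every Tconv library. With a log2 difference of 2.30 ± 0.95 and an adjusted p of 0.0918, Penk missed the threshold of 0.05. It passed with DESeq2 (adjusted p 0.0233), without the filter on low counts (0.0405) and without the C57Bl/6J HFHS Treg library of pool 33_37, which had 0 counts (log2 2.47, adjusted p 0.0497).

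Klrg1, a lectin-like inhibitory receptor that binds cadherins and marks late effector lymphocytes, separated the cell types completely. Every one of the 14 rest-brain Treg libraries, at 70.3, 245 and 943 CPM, lay above all 13 Tconv libraries at 4.94, 11.7 and 43.2 CPM. Klrg1 was higher in Tregs in 12 of 12 pools. Its log2 difference of 4.21 ± 0.35 is 18.5-fold, with an adjusted p of 2.69e-09. The highest library was the Balb/c SD pool 42_46 and the lowest the C57Bl/6J SD pool 01_05, which was also the lowest for Il1rl1.

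Among the transcription factors, Gata3 governs type 2 immunity and drives ST2. It was present in every library of both cell types, at 53.5, 164 and 386 CPM in rest-brain Tregs and 42.6, 88.8 and 131 CPM in Tconv. Here 8 of 14 Treg libraries exceeded all Tconv and the groups overlapped in the others. Gata3 rose by a log2 difference of 0.90 ± 0.24, or 1.87-fold (adjusted p 0.0119).

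Batf is an AP-1 family factor known to be needed for tissue Tregs to develop. It ran at 51.2, 147 and 247 CPM in rest-brain Tregs and 32.3, 76.5 and 91.3 CPM in Tconv. All Treg libraries but the Balb/c SD pool 42_46 lay above the Tconv range, 13 of 14. The rise of 0.84 ± 0.23 on the log2 scale was 1.79-fold with an adjusted p of 0.0141, which became 0.0618 (log2 0.64) without the Balb/c SD Treg library of pool 37_41.

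Rora encodes the nuclear receptor RORα, needed by type 2 innate lymphoid cells and used by skin Tregs. Treg libraries of the rest of the brain had 101, 275 and 644 CPM and Tconv libraries 80.1, 184 and 272. The groups overlapped, with 7 of 14 Treg libraries above all Tconv. Its log2 difference of 0.73 ± 0.20, 1.66-fold, passed at an adjusted p of 0.0136, and came to 0.61 with an adjusted p of 0.0670 without the Balb/c SD Treg library of pool 42_46, the highest of all.

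Pparg and Prdm1 did not pass. Pparg, the nuclear receptor on which visceral fat Tregs depend, was detected in 8 of 14 rest-brain Treg libraries, at 0, 7.75 and 62.6 CPM, and in 7 of 13 Tconv libraries, at 0, 0.229 and 8.55 CPM. For Pparg, 7 of 14 Treg libraries lay above all Tconv, and it was higher in Tregs in 8 of 12 pools and lower in 4. Both Balb/c SD Treg libraries stood at 0, and the averaged difference of Pparg could not be estimated (log2 1.09, SE 10.5). Prdm1 encodes the repressor Blimp-1 of effector Tregs and had 0.0400, 56.9 and 187 CPM in Tregs against 4.59, 31.4 and 86.3 in Tconv. For Prdm1, 5 Treg libraries lay above all Tconv and 2 below all, with a log2 difference of 1.13 ± 0.69 and an adjusted p of 0.281.

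Tregs and Tconv of a pool come from the same animals by the pool's label. With the pool as a block over the 12 pools with both cell types, 1684 genes passed, against 2772 without it. Klrg1 (log2 3.90, adjusted p 1.91e-05) and Batf (0.96, 0.0420) passed in that fit. Il1rl1 (3.35, 0.0686), Areg (6.13, 0.0848), Gata3 (0.79, 0.0909) and Rora (0.58, 0.223) did not. The 2 Balb/c SD Treg libraries bear much of the count too: 1632 genes passed without pool 37_41 and 1450 without pool 42_46. As bulk libraries, these cannot tell more cells of a kind from more RNA per cell.

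**Figure D2:**
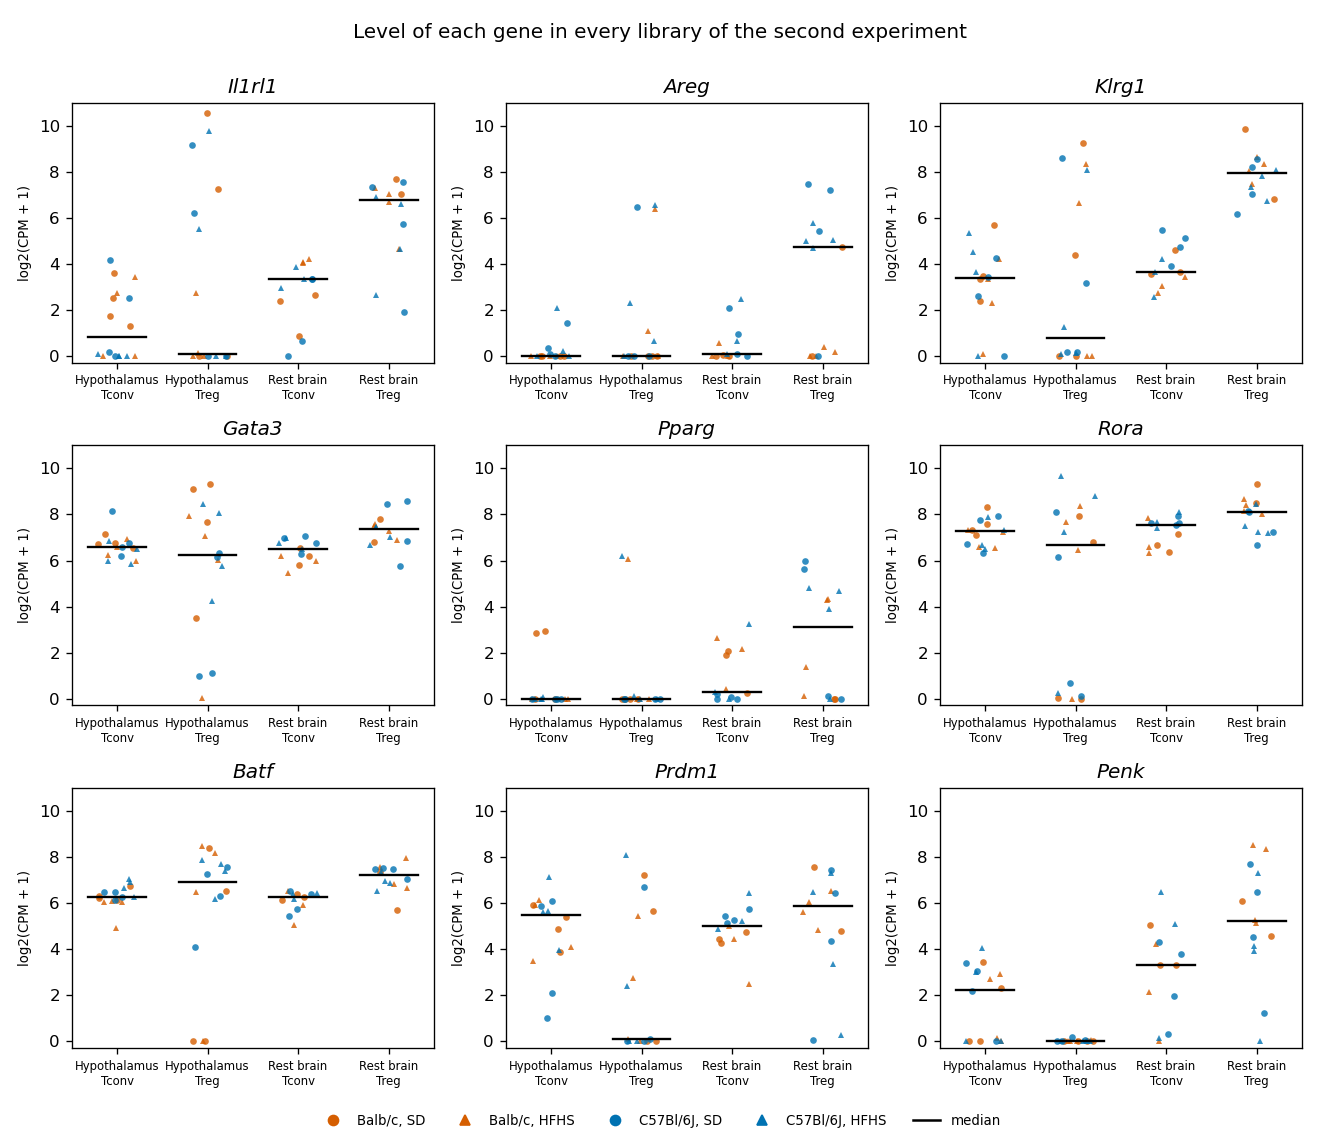
Level of each member as log2(CPM + 1) in each of the 59 libraries, grouped by tissue and cell type, with colour for strain, marker shape for diet and a line at the median. In rest-brain Tregs all 14 libraries lie above Tconv for Klrg1, and in hypothalamic Tregs none of 16 has Penk above the floor.

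Around the members, other genes of the pathway moved in part. Of 10 genes of the interleukin-33 receptor signalling list, Sigirr, a receptor that restrains ST2, was higher in rest-brain Tregs (log2 1.54, adjusted p 2.02e-05), with a median of 166 CPM against 70.3 in Tconv. The kinase Irak2 was the other (log2 2.50, adjusted p 0.000678), at a median of 42.2 against 9.72 CPM. Il1rap, the partner chain of ST2, had medians of 22.9 and 7.88 CPM and did not pass. None of the 5 tested genes of the amphiregulin and enkephalin pathway list passed. Among 10 partner transcription factors, Junb and Jun, which pair with Batf, were higher and Id2 and Maf lower. Of 19 other tissue Treg effector genes tested, 11 were higher and 1 lower, led by Tnfrsf9 (log2 6.47, adjusted p 3.43e-09) and Tigit (2.30, 3.17e-06), while the chemokine receptor Cxcr6 was lower (-7.09, 0.000116). Of the 12 resting Treg genes 4 were higher, Id3 and S1pr1 among them, and 2 lower, Bcl2 first.

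Markers of other lymphocytes also differed between the gates. All 6 CD8 T and NK cell genes were lower in rest-brain Tregs, with summed medians of 21.5 CPM in Tregs and 311 in Tconv, Cd8a at a median of 0 against 114 CPM. Of 4 tested Th2 and ILC2 genes, Il4 (log2 -11.84) and Il5 (-4.80) were lower. Il4 stood at 0 in all 14 rest-brain Treg libraries, so the size of its difference depends on the fit. Of 4 tested Th17 genes Ccr6 was higher and Il23r lower. Of 8 microglia genes Cx3cr1, Sall1 and Tmem119 were lower, with summed medians of 203 CPM in Tregs and 96.0 in Tconv. Pomc and Stmn2 of 8 neuron genes and Aqp4 and Slc1a3 of 4 astrocyte genes were lower, and Pecam1 of the endothelium and Hba-a1 of red cells higher. Their part in the members' differences was not tested.

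In hypothalamic Tregs the same programme looked different, patchy from pool to pool. Il1rl1 was higher than in Tconv and Penk lower, and the other 7 members did not pass. The 1 member higher compares with 0.753% of the 11283 genes tested, and the 1 lower with 32.7%, 33.4% in all. The members' median log2 difference was 0.77, against -1.49 over all genes. Each member other than Penk had at least 1 hypothalamic Treg library above the whole Tconv range beside libraries at or near 0.

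Il1rl1 shows this most plainly. The 16 hypothalamic Treg libraries ran from 0 through a median of 0.0520 to 1521 CPM, and the 16 Tconv libraries from 0 through 0.770 to 17.0. The 6 Treg libraries above all Tconv were the Balb/c SD pools 42_46 (1521 CPM) and 37_41 (150), the C57Bl/6J SD pools 62_66 (565) and 67_71 (72.7), and the C57Bl/6J HFHS pools 06_10 (881) and 72_76 (44.8). Of the others 8 stood at 0. The log2 difference was 5.85 ± 1.57 with an adjusted p of 0.00427, and Il1rl1 was higher in Tregs in 7 of 15 pools and lower in 5. The Tconv pool 67_66 matches no Treg pool by its label, so it and the Treg pool 62_66 are outside the pool counts and the block fit of this comparison. Il1rl1 stayed past the threshold without the 2 libraries (log2 6.06, adjusted p 0.00206) and without the 4 (5.15, 0.00575). It missed it with the pool as a block (log2 2.29, adjusted p 0.502), with limma-voom (1.64, 0.421) and in Balb/c alone (2.43, 0.435), while C57Bl/6J alone gave 9.47 (0.0244).

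Penk went the other way. Its 16 hypothalamic Treg libraries held 3 counts between them, 1 each in 3 libraries and none in 13, at most 0.119 CPM. Hypothalamic Tconv held 1265 Penk counts and reached 0, 3.74 and 15.8 CPM, with 9 of 16 libraries over the floor. Summed over the libraries, Penk was 400 times as high in Tconv for the depth sequenced, with a counting interval of 137 to 1944. The fitted log2 difference of -8.21 ± 1.55 had an adjusted p of 0.000309, but with so few counts its size depends on the fit. Penk was lower in Tregs in 9 of 15 pools and higher in 1, and passed with the pool as a block (-6.82, 0.00267). With limma-voom it did not (-3.37, 0.135).

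Klrg1 in hypothalamic Tregs was found at 0, 0.740 and 609 CPM, against 0, 9.41 and 50.3 CPM in Tconv. In 5 libraries it exceeded all Tconv, and 8 of 16 held it at or under the floor, so the groups overlapped widely. The log2 difference of 3.08 ± 1.38 had an adjusted p of 0.0861, which became 0.0497 without the 2 libraries and 0.0403 without the 4. Without the C57Bl/6J HFHS Treg library of pool 72_76 alone, the difference of Klrg1 was 1.31 (adjusted p 0.476). With the pool as a block it was -2.62 (adjusted p 0.394).

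Areg appeared in only some hypothalamic Treg pools. It stood at 92.3 CPM in the C57Bl/6J HFHS pool 33_37, at 86.4 in the C57Bl/6J SD pool 43_47 and at 83.7 in the Balb/c HFHS pool 11_14. All others had 3.97 CPM or less, and the median was 0. Il1rl1 and Areg were high in different pools: the 3 libraries with the most Areg had 0, 0 and 0.104 CPM of Il1rl1, and the 6 with the most Il1rl1 had no more than 0.555 CPM of Areg. Of these, the Areg library of pool 43_47 and the C57Bl/6J HFHS Il1rl1 library of pool 06_10 are among the 4 doubtful by Foxp3, and without them 2 Areg and 5 Il1rl1 libraries are left. This was noticed after the values were seen and was not tested. In Tconv of the hypothalamus, Areg was detected in 3 of 16 libraries and reached 3.25 CPM, with 0 in all 8 Balb/c libraries, so that the averaged difference could not be estimated.

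The transcription factors were as uneven. Gata3 ran at 0.0260, 74.5 and 632 CPM in hypothalamic Tregs and 55.9, 94.8 and 281 in Tconv, with 3 Treg libraries above all Tconv and 6 below all. Rora had 0, 99.8 and 827 CPM against 78.7, 154 and 324, with 3 above and 7 below. Batf stood at 0, 121 and 360 CPM against 29.2, 75.7 and 132, with 8 libraries above all Tconv and 4 below. Prdm1 was detected in 7 of 16 Treg libraries, at 0, 0.0696 and 274 CPM, but in all 16 Tconv libraries, at 1.0025, 44.4 and 138. None of these 4 passed, with log2 differences of 0.32, -0.13, 0.77 and -0.49 in that order. Pparg was found in 2 Treg libraries, at 71.2 CPM in the C57Bl/6J HFHS pool 72_76 and 65.9 in the Balb/c HFHS pool 15_21, and in 2 Tconv libraries, at 6.74 and 6.23 CPM.

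Detection per library sums this up. A hypothalamic Treg library detected 1 to 8 of the 9 members with a median of 4, and a rest-brain Treg library 7 to 9 with a median of 8. Tconv libraries detected 4 to 8 in the hypothalamus, median 6, and 6 to 9 in the rest of the brain, median 8. Hypothalamic Treg libraries also detected the fewest genes of all kinds, as given above, and the part of that in the members' absence was not tested.

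Of the pathway lists, interleukin-33 receptor signalling had 0 of 9 tested genes higher and 3 lower in hypothalamic Tregs. Among all genes tested 0.753% were higher and 32.7% lower, so 3 of 9 lower is near that share. The 3 were the adaptor Traf6 (log2 -4.50, adjusted p 0.00448), Il1rap (-3.55, 0.0249) and Irak3 (-4.21, 0.0277). Il1rap, which ST2 needs to signal, had a median of 0 CPM in these Tregs and 8.28 in Tconv. Of 2 tested genes of the amphiregulin and enkephalin list, Cpe, an enzyme that trims enkephalin precursors, was higher (4.71, 0.0393). Id2 was the 1 of 10 partner transcription factors that passed, lower at -3.40. Of 19 other effector genes 3 were higher, Cd83 and Tnfrsf9 first, and 5 lower, Gzmb and Cxcr6 first. Of 12 resting Treg genes 2 were higher, Id3 first, and 3 lower. Il4 and Hpgds, the 2 Th2 and ILC2 genes tested, were lower, as were all 5 CD8 T and NK genes tested, and of the 2 Th17 genes Ccr6 was higher.

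Set side by side within Tregs, the tissues differed in 1 member. Penk was lower in the hypothalamus, 1 of 9 members where 11.4% of 12602 genes passed. Nearly all of those genes were lower in the hypothalamus, with 0.0317% higher, so 1 of 9 lower is near that share. The members' median log2 difference was -1.28 and that of all genes -1.01. For the other 8 members the smallest adjusted p was 0.573. Other tools called more: DESeq2 also Areg (log2 -4.95, adjusted p 0.00507) and Pparg (-5.74, 0.00626), and limma-voom Il1rl1 (-5.13, 0.00625), Klrg1 (-6.88, 0.00018), Rora (-4.40, 0.00595), Prdm1 (-4.11, 0.0411) and Pparg (-3.59, 0.0235) beside Penk, all lower in the hypothalamus.

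Against the 3 Penk counts of hypothalamic Tregs stood 26886 in the rest of the brain, in 13 of 14 libraries over the floor. Scaled for depth this is a ratio of 10005, with a counting interval of 3423 to 48521. The fitted log2 difference was -12.36 ± 1.68 with an adjusted p of 0.000277, its size again set by the fit. Penk was lower in the hypothalamus in 9 of 10 pools with both tissues and higher in none. Without the 2 libraries it was -12.30 (adjusted p 0.000651) and without the 4 -12.30 (0.00305). It passed in Balb/c alone (-13.13, 0.0372) and not in C57Bl/6J alone (-11.62, 0.172) nor with the pool as a block (-12.06, 0.153), a fit in which 0 genes passed. The number of genes passing was 2348 without the hypothalamic C57Bl/6J HFHS pool 72_76, 683 without the rest-brain Balb/c SD pool 37_41 and 913 without pool 42_46, against 1441 with all libraries. Penk passed in each of these.

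By edgeR, Il1rl1 did not pass between Tregs of the 2 tissues (log2 -0.48 ± 1.20, unadjusted p 0.691), while limma-voom called it and Klrg1 lower, as given above. The spread of Il1rl1 did not match: 3 hypothalamic libraries lay above and 9 below all rest-brain Treg libraries. For Klrg1, 11 of 16 hypothalamic libraries lay below all rest-brain ones and none above (log2 -1.43 ± 1.15, adjusted p 0.630). Without the hypothalamic C57Bl/6J HFHS library of pool 72_76 the difference of Klrg1 was -3.18 (adjusted p 0.0541), which also did not pass. Of 19 other effector genes 5 were lower in the hypothalamus, among them Gzmb (-8.94, 0.00794), Il10 (-9.20, 0.00854), Lag3 (-6.90, 0.0113) and Nt5e (-4.51, 0.0170), and none higher. Among all genes tested 11.4% were lower and 0.0317% higher, and whether the effector genes differ from that share was not tested. Il10, the suppressive cytokine, had a median of 0 CPM in hypothalamic and 35.6 in rest-brain Tregs. Traf6, Nfil3 and Itgb8 were also lower, 1 gene each of the signalling, partner factor and Treg identity lists. No gene of the resting Treg, Th2 and ILC2, Th17, amphiregulin or other-cell lists passed.

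The tissue gap of Penk also differed between the cell types by test. In one fit of all 59 libraries the Treg against Tconv difference of Penk was lower in the hypothalamus than in the rest of the brain by -10.54 ± 1.84 on the log2 scale (adjusted p 0.000152). It was the 1 member of 9 past the threshold, where 11.2% of 14764 genes passed. Among all genes tested 10.7% were lower and 0.535% higher, so 1 of 9 lower is near that share. Penk also passed this test without the 2 libraries (-10.63, 7.24e-05), without the 4 (-10.36, 0.000352) and with limma-voom (-6.60, 0.00471). For Il1rl1 the same contrast was 2.31 ± 1.56 (adjusted p 0.511) and for Klrg1 -1.08 ± 1.42 (unadjusted p 0.449), so their Treg differences were not shown to differ by tissue. Genes of the lists that passed were all lower: Traf6, Irak2 and Il1rap of the signalling list, Junb of the partner factors, and Gzmb, Il10, Nt5e and Lag3 of the effector list.

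**Figure D3:**
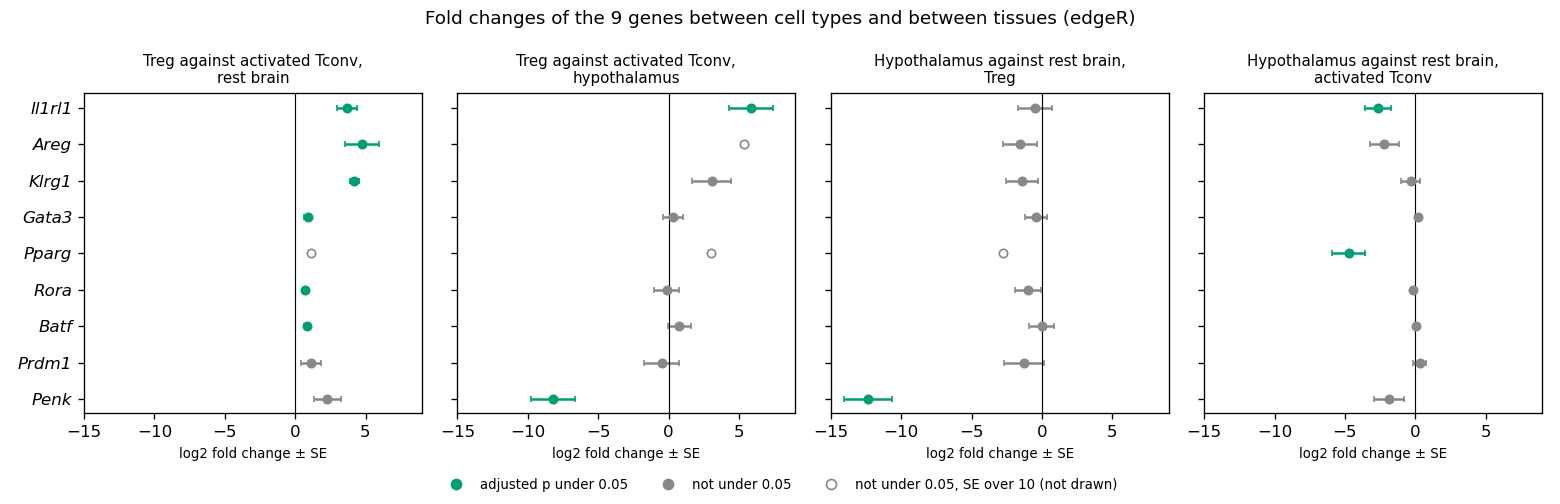
Log2 differences of the 9 members with their standard errors for Treg against Tconv in each tissue and hypothalamus against rest of the brain in each cell type. Hollow markers without bars are members whose difference could not be estimated. Penk lies at -8.21 and -12.36 in the comparisons with hypothalamic Tregs, and Klrg1 at 4.21 in the rest of the brain.

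Activated Tconv show how much of the programme lies outside Tregs. In them 2 of 9 members were lower in the hypothalamus than in the rest of the brain and none higher, with 22.6% of 12833 genes passing and medians of -0.34 for members and -0.10 for all genes. Pparg fell by 4.72 on the log2 scale (SE 1.17, adjusted p 0.00480), being over the floor in 2 of 16 hypothalamic and 7 of 13 rest-brain libraries at 8.55 CPM or less. With the pool as a block its adjusted p was 0.153.

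Il1rl1 was detected in 8 of 16 hypothalamic and 12 of 13 rest-brain Tconv libraries, and no hypothalamic library lay outside the rest-brain range. It fell by 2.65 on the log2 scale (SE 0.94, adjusted p 0.0404). This call was marginal: adjusted p was 0.0521 to 0.0642 without any 1 of 16 of the 29 libraries and 0.283 with the pool as a block. Those libraries were, in the rest of the brain, the C57Bl/6J pools 38_42, 33_37, 67_71 and 01_05 and the Balb/c pools 15_21, 16_20, 47_25, 32_36 and 37_41, and in the hypothalamus the C57Bl/6J pools 06_10, 33_37, 77_80 and 67_71 and the Balb/c pools 06_10, 37_41 and 42_46. Areg passed as lower (-3.15, adjusted p 0.0453) without the hypothalamic C57Bl/6J HFHS pool 06_10. Penk did not pass (-1.86 ± 1.06, adjusted p 0.237), nor did Klrg1, Gata3, Rora, Batf or Prdm1, each with a log2 difference within 0.35 of 0.

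Other genes moved with this tissue difference of Tconv. Microglia markers were lower in the hypothalamus for 5 of 7 tested, with P2ry12 first, though the summed medians were 95.3 and 96.0 CPM. Ikzf2 and Tnfrsf4 of the Treg identity list, Oprm1 of the enkephalin list, Maf, Cd83, Icos and Il7r were lower, and Myd88, Jun, Junb and Gzmb higher. Cd14, Cd79b and Ncr1 were lower, as were Syt1 and Stmn2 of the neurons and Slc1a2 and Aqp4 of the astrocytes, while Cnp of the oligodendrocytes was higher. No Th2 and ILC2 or Th17 gene passed. Their part in the members' differences was not tested.

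Diet is the question the study was built around, and no member passed for it in any cell type or tissue. Nor did any other gene: 0 of 7715 genes tested in hypothalamic Tregs, 0 of 10875 in hypothalamic Tconv, 0 of 11711 in rest-brain Tregs and 0 of 12287 in rest-brain Tconv, 0% each time by edgeR. At an unadjusted p under 0.05 those 4 fits held 213, 406, 853 and 591 genes. DESeq2 called 180, 16, 327 and 12 genes, and limma-voom 4, 0, 16 and 1. Pparg and Penk in hypothalamic Tregs and Areg and Pparg in hypothalamic Tconv were too low to be tested. A single edgeR fit of all 59 libraries, which shares 1 estimate of spread between even and uneven groups, called 2710 genes for diet in hypothalamic Tregs. Areg (log2 6.17, adjusted p 0.0346) and Pparg (11.15, 0.00326) were among them, the latter present in 2 of 8 HFHS libraries and 0 of 8 SD libraries.

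Among members the smallest unadjusted p for diet was 0.0258, for Klrg1 in rest-brain Tconv, with a log2 difference of -1.11 ± 0.46 (adjusted p 0.945). Klrg1 stood there at 4.94, 8.62 and 17.5 CPM on HFHS in 6 libraries and at 10.9, 23.4 and 43.2 CPM on SD in 7. Areg in rest-brain Tregs came next (-3.75 ± 1.80, unadjusted p 0.0536), at a median of 12.7 CPM on HFHS and 33.9 on SD, and both diets held libraries at 0. Il1rl1 in rest-brain Tregs had medians of 98.6 CPM on HFHS and 146 on SD, with ranges of 5.33 to 155 and 2.72 to 205 that lay almost on top of each other. In hypothalamic Tregs, 4 of 8 libraries on each diet had Il1rl1 over the floor, at 0.104 to 881 CPM on HFHS and 72.7 to 1521 on SD, and the other 4 on each diet stood at 0. The log2 difference there was -3.62 ± 4.31.

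Tests of whether diet acted differently in the strains gave no member either, with 0% of genes past in Tregs of the hypothalamus, 0% in Tconv of the hypothalamus, 0% in Tregs of the rest of the brain and 0.61% in Tconv of the rest of the brain. At an unadjusted p under 0.05 edgeR had 1295 genes in hypothalamic Tregs and 662 in rest-brain Tregs, where DESeq2 called 1353 and 586, and DESeq2 called 171 in hypothalamic Tconv. Limma-voom called 110 in hypothalamic and 1 in rest-brain Tregs. The smallest unadjusted p among members in those 3 was 0.0276, for Il1rl1 in hypothalamic Tconv, with a log2 interaction of 7.75 ± 3.22, which did not pass.

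Strain gave no member past the threshold. The share of genes passing was 0.0389% in hypothalamic Tregs, 2.1% in hypothalamic Tconv, 0.299% in rest-brain Tregs and 23.5% in rest-brain Tconv. Whether 0 of 9 members differs from the share in the last fit was not tested. In that fit 4 members had an unadjusted p under 0.05, and Prdm1 came closest (-0.92 ± 0.39, adjusted p 0.0978). Prdm1 stood at 4.59, 20.9 and 31.4 CPM in 6 Balb/c libraries and 28.3, 37.2 and 86.3 in 7 C57Bl/6J libraries, overlapping at the edge.

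Single libraries decided some of these calls. Without the Balb/c HFHS Tconv library of pool 47_25, Rora (-0.86, adjusted p 0.00110) and Areg (-6.21, 0.0351) were lower in rest-brain Tconv of Balb/c. Rora in that library was 233 CPM, where the other 5 Balb/c libraries had 80.1 to 140. Without the C57Bl/6J HFHS Tconv library of pool 33_37, which had the highest Pparg of all Tconv at 8.55 CPM, Pparg was higher in Balb/c (5.24, 0.0224).

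Areg in rest-brain Tregs was nearly a matter of strain by its levels. It was over the floor in 7 of 8 C57Bl/6J libraries with a median of 37.2 CPM, and in 2 of 6 Balb/c libraries with a median of 0.0577. Of the Balb/c libraries only the SD pool 37_41, at 25.8 CPM, reached the level of those 7, and the C57Bl/6J SD pool 11_15 stood at 0. The log2 difference of -5.71 ± 2.04 had an unadjusted p of 0.0130 and an adjusted p of 0.263, while DESeq2 gave an adjusted p of 0.00623.

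Rora was the member whose Treg difference depended on strain. In rest-brain Tregs it stood at 262, 349 and 644 CPM in Balb/c and at 101, 166 and 354 in C57Bl/6J. Tconv of Balb/c had 80.1, 99.4 and 233 CPM and those of C57Bl/6J 168, 198 and 272. The 6 Balb/c Treg libraries lay above all 6 Balb/c Tconv libraries, and the C57Bl/6J groups overlapped. The interaction of cell type and strain was 1.46 ± 0.40 on the log2 scale with an adjusted p of 0.0316, the 1 member of 9 past the threshold where 4.85% of genes passed. Fitted apart, the Treg difference of Rora was 1.47 in Balb/c (adjusted p 0.00272) and -0.04 in C57Bl/6J (0.998). In the hypothalamus 4.87% of genes passed this interaction and none of the members, Il1rl1 having the smallest p (-6.87 ± 2.80, unadjusted p 0.0192, adjusted 0.148). Of the lists, Junb, Jun, Cpe, Lck and Cd4 were higher and Id2, Maf, Tnfrsf4, Cd3d and Cd3g lower for this interaction in the rest of the brain, and Ikzf4 was higher and Nt5e, Hpgds and Cd8b1 lower in the hypothalamus.

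To set the members in order among themselves, levels were compared as TPM, which also scales for transcript length. In rest-brain Tregs Klrg1 had a median of 276 TPM and Batf 258, 2 neighbours that did not separate, since Klrg1 was above Batf in 6 of 14 libraries. Gata3 followed at 65.97 TPM, below Batf in 14 of 14 libraries. Penk (39.7 TPM), Areg (34.5), Rora (31.3) and Il1rl1 (28.5) lay close together with wide overlap, each above the next in 8, 6, 9 and 8 of 14 libraries. Prdm1 (14.1) and Pparg (6.29) were the lowest. In the other 3 sets Batf led by level, with medians of 208 TPM in hypothalamic Tregs, 133 in hypothalamic Tconv and 114 in rest-brain Tconv, and Gata3 and Rora came next. Klrg1, first in rest-brain Tregs, came after these in hypothalamic Tregs at 0.671 TPM, and Penk was last.

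The genes whose levels ran most alike were sought over the 59 libraries among 9002 genes for the 7 members with enough counts, which leaves out Areg and Pparg. Klrg1 was most like Cd72 (Spearman 0.707), followed by Abtb1 (0.663) and Xpo6 (0.660). Il1rl1 had Arl5c (0.615), Sla (0.561) and Cd83 (0.560). Batf went with Nfkbia (0.654), Tnfrsf18 (0.647) and Icos (0.640). Gata3 was most like Coro1b (0.630), Fmnl1 (0.607) and Arhgef1 (0.592), Rora like P2ry10 (0.618), Cog8 (0.609) and Srebf2 (0.606). For Prdm1 these were Isy1 (0.671), Adar (0.603) and Hp1bp3 (0.564), and for Penk Ric8b (0.600), Ttc17 (0.597) and Bicd1 (0.589). Between members the highest value was 0.475 for Batf and Klrg1, then 0.462 for Gata3 and Klrg1 and 0.447 for Il1rl1 and Klrg1. The libraries share 16 groups, animals between cell types and tissues, and a wide range of depth, so these values describe and test nothing.

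The 9 genes lie on 8 chromosomes, Klrg1 at chr6:122270596-122282833 and Pparg at chr6:115360879-115490404 sharing one. Il1rl1 is at chr1:40404864-40465418, Gata3 at chr2:9857078-9887953, Penk at chr4:4133536-4138815 and Areg at chr5:91139599-91148432. Rora is at chr9:68653404-69388246, Prdm1 at chr10:44437174-44528558 and Batf at chr12:85686720-85709087, all on GRCm38.p6.

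Promoters are shown for Il1rl1, Areg and Batf, which were higher together in rest-brain Tregs and hold a motif searched. RefSeq promoter sequences on GRCm38.p6 were at hand for 7 of 9 members, not for Klrg1 and Penk, and are windows at annotated transcript starts, some of which lie far inside the gene. On both strands 3 motifs were searched: AGATAA, known to bind Gata3 and its kin, found in 9.99% of all 32851 promoter windows of the same length; TGACGTCA, the cyclic AMP response element, in 1.55%; and the AP-1 motif with any base at its centre, in 6.75%. Capitals mark the match: TTATCT, which is AGATAA on the other strand, in the window of the long Il1rl1 form at chr1:40439379-40439628 (plus strand) and in Batf at chr12:85686470-85686719 (plus strand), and TGACGTCA in Areg at chr5:91139349-91139598 (plus strand). The other Il1rl1 window, at chr1:40429320-40429569 before the 337-codon form, also holds AGATAA, so the motif is not particular to the long form. A match is a description of these letters only. Of the other members, Prdm1 held the AP-1 motif, and the windows of Gata3, Rora and Pparg held none of the 3.
Il1rl1: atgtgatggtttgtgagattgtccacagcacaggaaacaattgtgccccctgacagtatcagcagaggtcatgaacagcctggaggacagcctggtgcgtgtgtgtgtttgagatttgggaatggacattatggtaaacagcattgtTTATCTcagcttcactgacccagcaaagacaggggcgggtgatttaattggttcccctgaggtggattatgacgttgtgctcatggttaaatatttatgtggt
Areg: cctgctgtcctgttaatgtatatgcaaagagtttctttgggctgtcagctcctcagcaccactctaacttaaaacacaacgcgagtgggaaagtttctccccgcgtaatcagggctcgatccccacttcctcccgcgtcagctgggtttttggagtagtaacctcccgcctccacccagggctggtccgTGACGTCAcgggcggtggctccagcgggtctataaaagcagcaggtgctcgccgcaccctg
Batf: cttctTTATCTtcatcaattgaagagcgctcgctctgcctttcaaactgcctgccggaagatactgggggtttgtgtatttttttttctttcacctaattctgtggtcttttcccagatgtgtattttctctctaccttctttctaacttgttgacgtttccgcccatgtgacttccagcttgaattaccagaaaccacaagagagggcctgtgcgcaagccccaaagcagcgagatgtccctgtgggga

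The pilot measured the members in a single library per condition, so its differences have no replicate check and no p. Its diet arm pooled hypothalami of 9 female Balb/c mice with a Foxp3 GFP reporter after 16 weeks on HFHS or regular diet, sorted into CD4 cells (called Tconv below) and Tregs. The deposited titles call the former naive and without CD44, while the paper gives their gate as CD25-negative with low to intermediate CD44. Its obesity arm pooled 7 female mice that were ob/ob, which lack leptin, or wild type (WT) C57Bl/6J, sorted into CD4 T cells and cells high for CD25. Counts on genes ran from 99925 to 5334511, only 0.391% to 17.1% of all reads. The WT Treg library is not one of T cells by its markers: the 8 T-cell genes summed to 99.7 CPM with Cd4 at 0, and the microglia list to 35170 CPM. Foxp3 had 13 counts in it. Tconv and Tregs on regular diet had about as much Foxp3, 72.7 and 75.3 CPM.

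Pilot Tregs on HFHS held Klrg1 with 481 counts, Batf with 171 and Il1rl1 with 94, where Tregs on regular diet had none of the 3. Against a floor of 3 counts per library these are ratios of at least 133-fold for Klrg1, 47.5-fold for Batf and 26.1-fold for Il1rl1. Rora did the reverse, with 0 counts on HFHS and 360 on regular diet, at least 144-fold lower. Gata3 had 895 and 817 counts, a ratio of 0.912 after scaling. So 4 of 5 members over 20 scaled reads were past 2-fold, but so were 80.5% of all such genes. Areg, Penk, Pparg and Prdm1 had no count in either library.

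Pilot Tconv of the diet arm had Il1rl1 at 77 counts on HFHS and 31 on regular diet, a ratio of 4.23 (2.76 to 6.64), and Rora at 256 and 59, a ratio of 7.39 (5.55 to 9.99). Gata3 (0.692) and Batf (0.849) stayed within 2-fold, so 2 of 4 members were past it beside 61.9% of genes. In the obesity arm, CD4 T cells of ob/ob mice had 134 counts of Gata3 against 63 in WT, a scaled ratio of 0.273, and Rora had 8 against 150. Batf (396) and Prdm1 (43) were counted in the ob/ob library alone and Areg (27) in the WT library alone. By scaled counts 5 of 5 members were past 2-fold, where 89.9% of genes were, but against the floor Prdm1 is shown only as at least 1.84-fold higher. The WT library also held more of the Treg genes Foxp3 (300 against 27.8 CPM) and Ikzf2 (794 against 196), and their part in these differences was not tested. For the CD25-high cells 3 of 3 members were past it beside 91.4% of genes: Il1rl1 was absent from ob/ob cells against 133 counts in WT, while Batf (13 counts) and Rora (4) were found in ob/ob cells only. The ob/ob library held only 99925 counts, and the WT library is the one not of T cells by its markers. Against the floor Il1rl1 is shown only as at least 2.84-fold lower, Batf as at least 67.7-fold and Rora as at least 20.8-fold higher. Penk was found in 1 of 8 pilot libraries, ob/ob CD4 T cells, with 8 counts.

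Several limits apply to these values. In hypothalamic Tregs the levels of most members rest on a few pools each, and 4 of those 16 libraries are doubtful by Foxp3. Areg and Pparg, absent from whole groups, could not be estimated in some contrasts averaged over strains and diets. Among these were Areg for Treg against Tconv in the hypothalamus and Pparg for the same contrast in the rest of the brain. Rest-brain results lean on 2 Balb/c SD Treg libraries. CPM measures a share of a library's RNA, so a member's level also moves with what else is in the tube. Strain and sex cannot be told apart, no label names a litter, and protein was not measured.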

How the data were processed

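The authors prepared the 59 libraries of the main experiment with the SMARTer mRNA kit for low input, sequenced 100 bp read pairs on a NovaSeq X Plus and ran nf-core/rnaseq with Salmon on mm10. The deposited estimated counts and TPM are per RefSeq transcript: the counts were rounded and summed over the names of a gene (34648 of 35034 names matched, 98.9%, giving 24530 symbols). For the pilot the authors aligned 75 bp single reads with BWA and counted them with HTSeq, and the deposited counts cover 24421 symbols.

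The filter kept genes over 10 counts in a number of libraries no smaller than the smallest group. They were tested in edgeR 4.0.16 (TMM, quasi-likelihood, R 4.3.3). Tests of cell type, tissue and interactions used a model with 1 mean per group. Contrasts of cell type or tissue average the groups on each side. Diet was tested with strain as a covariate and strain with diet, within each cell type and tissue. In all tests p was adjusted by Benjamini and Hochberg over all genes tested, with a threshold of 0.05. DESeq2 1.42.0 and limma-voom (limma 3.58.1) gave alternatives, as did other scaling, no filter, 1 fit of all libraries, each strain alone, pools as blocks and each library left out in turn. In the pilot, a fold against a library without counts is a bound at 3 counts. In the main experiment, the size of a fitted difference against a group without counts depends on the fit. Pilot libraries were scaled by size factors, and a gene over 20 scaled reads counts as past at 2-fold or more either way.

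Pools share animals by their labels, so pairing follows the design. The check for it found little: same-pool correlations of deviations had medians of 0.00147, 0.0136, -0.00758 and 0.00621 over 15, 12, 10 and 9 pools, none over 0.1, and the pool block is given as an alternative. Genes named from a list are at most 4 per list and comparison, those with the smallest adjusted p. Members and lists were chosen with earlier results of these data known.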

Additional observations from a re-analysis of the deposited data

Results flagged for a closer look

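Of 94 combinations of a group and a member, 23 had 1 library apart from the other libraries of its group. The rule is set to flag about 1 in 20 groups by chance. That rate need not hold for CPM values with many at or near 0, so the count was not tested against it. For Il1rl1 these were hypothalamic Treg libraries: Balb/c SD pool 42_46 at 1521 CPM (next 150), Balb/c HFHS pool 15_21 at 5.72 (next 0.104), C57Bl/6J SD pool 62_66 at 565 (next 72.7) and C57Bl/6J HFHS pool 06_10 at 881 (next 44.8).

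Areg stood apart in hypothalamic Tregs of the Balb/c HFHS pool 11_14 at 83.7 CPM (next 1.13), the C57Bl/6J SD pool 43_47 at 86.4 (next 0) and the C57Bl/6J HFHS pool 33_37 at 92.3 (next 3.97). In hypothalamic Tconv it did so in the C57Bl/6J SD pool 67_71 at 1.66 (next 0.278) and the C57Bl/6J HFHS pool 06_10 at 3.25 (next 0.165).

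Klrg1 did so in hypothalamic Tregs of the Balb/c SD pool 37_41 at 609 CPM (next 19.6), the C57Bl/6J SD pool 62_66 at 382 (next 8.12) and the C57Bl/6J HFHS pool 72_76 at 268 (next 1.36), and in hypothalamic Tconv of the Balb/c SD pool 37_41 at 50.3 (next 10.1). Prdm1 stood out in hypothalamic Tregs of the Balb/c HFHS pool 15_21 at 42.4 (next 5.73), the C57Bl/6J SD pool 43_47 at 104 (next 0.082) and the C57Bl/6J HFHS pool 33_37 at 274 (next 4.25). Pparg did in those of the Balb/c HFHS pool 15_21 at 65.9 (next 0) and the C57Bl/6J HFHS pool 72_76 at 71.2 (next 0.086).

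Gata3 was high in hypothalamic Tconv of the C57Bl/6J SD pool 11_15 at 281 CPM (next 107), and Batf low in those of the Balb/c HFHS pool 11_14 at 29.2 (next 64.4). In rest-brain Tregs Batf was low in the C57Bl/6J SD pool 67_71 at 132 (next 177), Rora high in the C57Bl/6J HFHS pool 38_42 at 354 (next 179) and Penk high in the C57Bl/6J HFHS pool 77_80 at 159 (next 16.7).

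Differences between groups passed a test for 2 members: Penk for cell type and tissue, at a log2 value of -10.54, and Rora for cell type and strain in the rest of the brain, at 1.46.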

How the results depend on the processing

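Direction was judged only where the edgeR result or the alternative passed 0.05, and the cause was not tested. Among members 2 values reversed: Rora, Treg against Tconv in the rest of the brain, was -0.038 in C57Bl/6J alone, and Batf in the interaction of cell type and tissue was -1.85 (adjusted p 0.0474) with limma-voom.

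Gene counts are given where they moved by more than 1.5-fold. With DESeq2 they were 3562 for hypothalamus against rest of the brain in Tregs, 4786 for cell type and tissue, 3116 and 2215 for cell type and strain in hypothalamus and rest of the brain, 250, 542 and 303 for strain in hypothalamic Tregs, hypothalamic Tconv and rest-brain Tregs, 180, 16, 327 and 12 for diet in hypothalamic Tregs, hypothalamic Tconv, rest-brain Tregs and rest-brain Tconv, and 1353, 171, 586 and 669 for diet and strain in that order. DESeq2 size factors gave 146 for diet and strain in rest-brain Tconv.

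Limma-voom gave 7315 and 4296 for Treg against Tconv in hypothalamus and rest of the brain, 5484 for tissue in Tregs, 6259 for cell type and tissue, 4 for cell type and strain in the hypothalamus, 13 and 123 for strain in hypothalamic and rest-brain Tregs, 4, 16 and 1 for diet in hypothalamic Tregs, rest-brain Tregs and rest-brain Tconv, and 110, 1 and 216 for diet and strain in those. Without the filter there were 5075 for tissue in Tconv, 16 for strain in hypothalamic Tregs, 61, 5 and 9 for diet in hypothalamic Tregs, rest-brain Tregs and rest-brain Tconv, and 11 and 300 for diet and strain in hypothalamic Tregs and rest-brain Tconv.

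One fit of all 59 libraries gave 1007 for Treg against Tconv in the rest of the brain, 2971 and 1453 for tissue in Tregs and Tconv, 2710 for diet in hypothalamic Tregs, and 2620, 52, 344 and 46 for strain in hypothalamic Tregs, hypothalamic Tconv, rest-brain Tregs and rest-brain Tconv. Of the members called in the rest of the brain, only Klrg1 (adjusted p 0.0294) passed in it.

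With pools as blocks the counts were 1684 for Treg against Tconv in the rest of the brain, 0 for tissue in Tregs and 33 in Tconv, and the block changed no other call than those given with the results. C57Bl/6J alone gave 745 and 609 for Treg against Tconv in hypothalamus and rest of the brain and 0 and 1 for tissue in Tregs and Tconv. Without the 2 and the 4 doubtful libraries, cell type and tissue had 2792 and 2934 genes, and diet and strain in hypothalamic Tregs 1 and 1.

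Leaving out each library in turn, the genes called ranged from 3433 to 4797 for Treg against Tconv in the hypothalamus, 1450 to 3295 in the rest of the brain, 683 to 2348 for tissue in Tregs and 2517 to 3015 in Tconv. For diet the range was 0 to 1 in hypothalamic Tregs, with 1 gene without the C57Bl/6J SD pool 11_15, and 0 to 0 elsewhere. For strain it was 1 to 3 in hypothalamic Tregs, 182 to 260 in hypothalamic Tconv, 26 to 41 in rest-brain Tregs and 2449 to 2914 in rest-brain Tconv. In the pilot, asking for over 20 scaled reads in both libraries gave 1509 and 976 genes past 2-fold for diet in Tconv and Tregs and 1046 and 899 for ob/ob.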
